A study of Mus musculus with 15 samples.

Results

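A set of 9 genes linked to the growth or the state of fat tissue was followed in RNA of mouse periprostatic fat, the white fat around the prostate. They were Mest, Sfrp5, Npr3, Bmp3, Tnmd, Sncg, Cav1, Cav2 and Fndc1, taken by symbol from 23995 gene symbols, and all 9 were listed. Of these, 8 reached the level at which genes were tested, and Tnmd did not. Leptin (Lep), the hormone that fat cells secrete in proportion to fat stores, served as the gene to which each was related.

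All animals were male C57BL/6J mice from the Jackson Laboratory, killed at 26 weeks of age, with 5 mice in each of 3 groups and 1 library per mouse. HFD estradiol mice ate a diet with 60% of its energy as fat from 6 weeks of age and, after 12 weeks of it, received a pellet with 0.25 mg estradiol that releases its load over 60 days. HFD placebo mice had the same diet and a pellet without hormone. LFD mice ate a diet with 10% of its energy as fat and had no implantation, so diet and pellet placement cannot be told apart between LFD and the other groups. Tissue was taken 8 weeks after pellet placement.

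When white fat expands, fat cells enlarge and take up lipid, and precursors in the stroma can form new fat cells. Mest (mesoderm specific transcript) is an imprinted gene, read from the paternal copy, whose product belongs to the alpha/beta hydrolase fold family and whose level in mouse fat varies widely between animals of the same strain. Sfrp5 is a secreted antagonist of Wnt signals, Npr3 the receptor that clears natriuretic peptides, and Bmp3 a secreted member of the BMP family. Sncg encodes gamma-synuclein, which fat cells and neurons make. Cav1 and Cav2 are the caveolins, which build the caveolae, the small pits that cover the fat cell surface. Tnmd (tenomodulin) is a membrane protein of tendon and fat, and Fndc1 encodes a protein with fibronectin type III domains.

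The RefSeq promoter windows of Mest, Sfrp5, Sncg and Fndc1 on GRCm38.p6, from 250 bases before to 50 bases after a start, are shown because these 4 members differed between the 2 high-fat groups, which estradiol separated. Each is printed 5′ to 3′ on the strand of its gene, with capitals at every GGTCA or its reverse complement TGACC, the repeated unit of the estrogen response element. The table lists 3 windows for Mest, and the middle 1 by position is shown.
Mest, chr6:30737800-30738099, plus strand: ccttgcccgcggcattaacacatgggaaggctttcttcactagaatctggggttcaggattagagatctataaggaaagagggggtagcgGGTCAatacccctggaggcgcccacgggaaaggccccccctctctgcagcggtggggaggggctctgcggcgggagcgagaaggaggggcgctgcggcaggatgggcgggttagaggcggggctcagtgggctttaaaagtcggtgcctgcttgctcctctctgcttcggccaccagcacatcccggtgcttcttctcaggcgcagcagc
Sfrp5, chr19:42202203-42202502, minus strand: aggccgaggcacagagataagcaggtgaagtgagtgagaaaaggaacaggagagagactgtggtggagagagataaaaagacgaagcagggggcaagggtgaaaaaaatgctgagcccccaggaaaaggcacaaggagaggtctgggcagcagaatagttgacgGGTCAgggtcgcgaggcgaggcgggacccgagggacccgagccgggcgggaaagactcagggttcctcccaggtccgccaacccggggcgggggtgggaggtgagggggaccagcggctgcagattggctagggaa
Sncg, chr14:34374620-34374919, minus strand: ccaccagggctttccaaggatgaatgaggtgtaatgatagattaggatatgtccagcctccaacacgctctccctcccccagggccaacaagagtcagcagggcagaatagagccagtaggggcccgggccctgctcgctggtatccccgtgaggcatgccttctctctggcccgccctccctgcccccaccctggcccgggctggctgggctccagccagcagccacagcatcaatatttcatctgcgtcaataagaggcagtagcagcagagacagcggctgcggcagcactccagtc
Fndc1, chr17:7827253-7827552, minus strand: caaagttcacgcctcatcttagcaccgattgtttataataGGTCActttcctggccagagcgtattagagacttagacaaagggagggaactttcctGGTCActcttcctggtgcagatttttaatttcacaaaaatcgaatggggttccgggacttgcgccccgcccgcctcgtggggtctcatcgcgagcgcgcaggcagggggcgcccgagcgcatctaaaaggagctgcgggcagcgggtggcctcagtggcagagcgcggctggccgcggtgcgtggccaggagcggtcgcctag
The Mest and Sfrp5 windows shown held 1 match to GGTCA each, that of Fndc1 held 2 and that of Sncg 0. Of the other Mest windows, that starting at 30733256 held 0 and that at 30737803 held 1. Members not called between the high-fat groups had matches too: the Cav2 window held 1, and the Cav1 windows starting at 17306085 and 17307390 held 0 and 2. The windows of Npr3 and of Tnmd, which was not tested by limma, held 0. Over both strands, 40.5% of the 32851 promoter windows in the table hold GGTCA. The full element, GGTCA followed after any 3 bases by TGACC and so overlapping that motif, is in 0.07% of all windows and was in no window of the 8 members that have one. Bmp3 had no window in the table. A match to these letters is a description of the window and not evidence of binding.

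Whole-library features bear on every value below. The summed FPKM per library was 37561 to 60726 in HFD estradiol, 34544 to 105910 in HFD placebo and 34449 to 38755 in LFD, so each library was rescaled with a median-of-ratios factor, and levels are given as scaled FPKM. A single gene symbol, Mir6236, held 10.2% to 53.1% of the summed FPKM, the highest share being in LFD mouse 2. This is a share of FPKM, a unit divided by transcript length, and not of reads. What RNA its reads came from was not examined, and the constant-sum scaling used as an alternative includes it. All LFD libraries were sequenced on lane 5 and all HFD estradiol libraries on lane 6, with 3 HFD placebo libraries on lane 5 and 2 on lane 6. By an estimate from the spacing of low values, 1 scaled FPKM in a transcript of 2 kb rested on 37.0 to 97.1 fragments in HFD estradiol, 35.1 to 220 in HFD placebo and 20.8 to 40.2 in LFD. The tissue label was met by the markers: all 14 mature adipocyte markers reached the tested level, none of 10 prostate and urogenital epithelium markers did, and the prostate list's summed scaled FPKM was at most 3.39. Hoxb13, which marks prostate epithelium, was listed at 0 in every HFD estradiol and HFD placebo library.

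HFD estradiol fat had less Mest and Sfrp5 than HFD placebo fat and more Sncg and Fndc1. Among the members, HFD placebo fat differed most from LFD fat in Mest, which was 7.66-fold higher by the ratio of means, and in Sfrp5, which was 3.88-fold higher. Sncg and Bmp3 also rose and Cav2 fell. With limma and Benjamini-Hochberg adjustment over 5615 genes, 5 of the 8 tested members passed an adjusted p of 0.05 in HFD placebo against LFD, beside 43.3% of all tested genes. These were 4 higher and 1 lower, beside 21.3% and 22% of all genes in those directions. In HFD estradiol against HFD placebo 4 passed, 2 higher and 2 lower, beside 30.4% of all genes, 14.3% higher and 16% lower. In HFD estradiol against LFD 4 passed, all higher, beside 7.69% of all genes, with 3.95% higher and 3.74% lower. These 2 groups share no lane, so that count is not a result about the members either. With lane as a further term, 162 of the 5615 genes were called there. Fndc1 (1.10, limma adjusted p = 0.036) and Sncg (1.04, adjusted p = 0.044) stayed higher. Cav2 was called lower (−0.68, adjusted p = 0.048), and Mest and Bmp3 were not called. Over FPKM as deposited the split of higher to lower members was 0 to 2 in HFD estradiol against HFD placebo and 5 to 0 in HFD placebo against LFD, and with a constant sum per library 1 to 2 and 5 to 0. In HFD estradiol against HFD placebo and HFD placebo against LFD the backgrounds are so large that the counts of members called say little, and the differences are given by gene. The median log2 fold change of the 8 members was 0.22 in HFD estradiol against HFD placebo, 0.44 in HFD placebo against LFD and 0.69 in HFD estradiol against LFD, while that of all tested genes was within 0.01 of 0 in each. The 3 comparisons share libraries and are not independent of each other. In bulk tissue, fewer cells of a type and less RNA per cell cannot be told apart, which holds for every difference below.

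**Figure D1:**
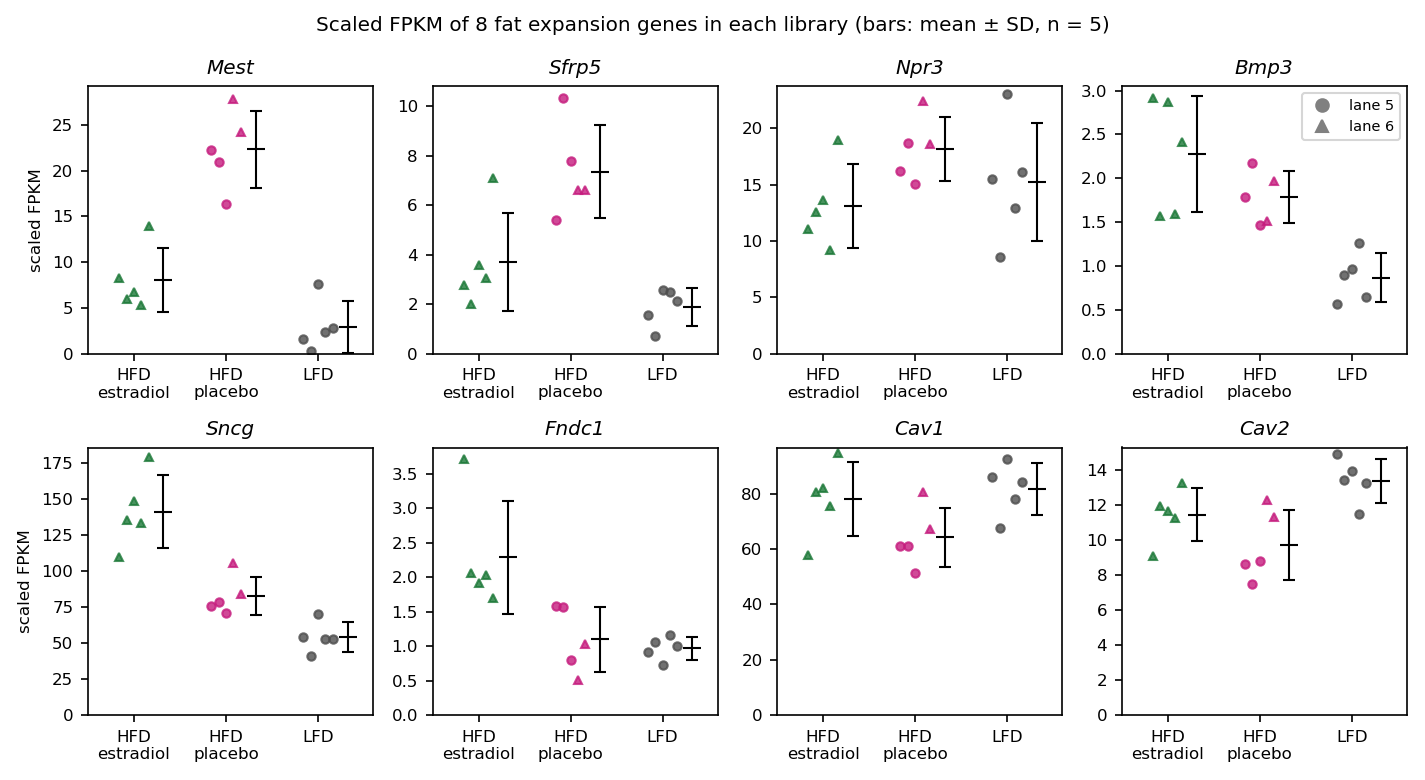
Scaled FPKM (vertical axis, from 0) of the 8 tested members in each library, with HFD estradiol, HFD placebo and LFD from left to right, circles for lane 5, triangles for lane 6 and bars for the mean ± SD of 5 mice. Mest in HFD placebo mice, 16.4 to 27.9, lay above every mouse of both other groups, and Sncg in HFD estradiol mice, 109 to 179, lay above every HFD placebo and LFD mouse.

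Mest had scaled FPKM of 8.22, 5.97, 6.68, 5.33 and 14.0 in HFD estradiol mice, 22.2, 21, 16.4, 27.9 and 24.2 in HFD placebo mice, and 1.58, 0.268, 7.64, 2.32 and 2.77 in LFD mice. Every HFD placebo mouse exceeded every other mouse, whereas the highest LFD mouse lay within the HFD estradiol range. The mean was 8.03 ± 3.48 in HFD estradiol, 22.3 ± 4.23 in HFD placebo and 2.91 ± 2.80 in LFD (SD, n = 5 each), so the order of levels was HFD placebo, HFD estradiol, LFD. The log2 fold change, on log2(scaled FPKM + 1), was −1.42 in HFD estradiol against HFD placebo (SE 0.37, 95% interval −2.21 to −0.64, limma adjusted p = 0.0080). It was 2.83 in HFD placebo against LFD (SE 0.37, interval 2.05 to 3.62, adjusted p = 1.9e-05). For HFD estradiol against LFD it was 1.41 (SE 0.37, interval 0.62 to 2.19, adjusted p = 0.029), with overlapping groups. That last call did not hold when any 1 of LFD mice 1, 2 and 4 or HFD estradiol mice 1, 3 and 5 was left out (adjusted p up to 0.070), nor with lane as a term (1.03, adjusted p = 0.405).

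Mest lies on the plus strand at chr6:30723547-30748465 of GRCm38, with 11 annotated transcripts in GENCODE. It shares 912 exon bases with Copg2 on the opposite strand, which encodes a subunit of the COPI vesicle coat. The library kit marks strand, but no source used here says whether the counting used strand, so the share of each gene's value that comes from the other could not be separated. Copg2 had 1.56 ± 0.284 scaled FPKM in HFD estradiol, 2.53 ± 0.346 in HFD placebo and 1.40 ± 0.346 in LFD (SD, n = 5 each). It moved with Mest, with log2 fold changes of −0.46 in HFD estradiol against HFD placebo (adjusted p = 0.0026) and 0.56 in HFD placebo against LFD (adjusted p = 3.7e-04). The microRNA Mir335, encoded inside Mest, was listed at 0 in all 15 libraries. Copg2 was the only tested gene among 7 neighbours and imprinted partners of Mest.

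Sfrp5 (chr19:42197971-42202252, minus strand, 1 transcript) had 2.75, 2.01, 3.59, 3.03 and 7.09 scaled FPKM in HFD estradiol mice, 5.39, 10.3, 7.79, 6.61 and 6.61 in HFD placebo mice, and 1.56, 0.71, 2.57, 2.49 and 2.14 in LFD mice. The HFD placebo and LFD groups did not overlap, and HFD estradiol mouse 5 alone of its group lay within the HFD placebo range. The log2 fold change was −0.89 in HFD estradiol against HFD placebo (SE 0.25, interval −1.41 to −0.37, adjusted p = 0.012). In HFD placebo against LFD it was 1.55 (SE 0.25, interval 1.03 to 2.07, adjusted p = 1.2e-04). For HFD estradiol against LFD, 0.66 did not pass the threshold (interval 0.14 to 1.18, adjusted p = 0.122), though it did with a constant sum per library (0.89, adjusted p = 0.0019). By the scaling used throughout, HFD estradiol and LFD were neighbours in the order of levels that were not separated beyond their spread.

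Sncg (chr14:34370274-34374789, minus strand, 1 transcript) had the highest mean of the members in both high-fat groups in FPKM, a unit already divided by transcript length, and was below Cav1 in every LFD mouse. It had 109, 136, 148, 133 and 179 scaled FPKM in HFD estradiol mice, 75.5, 78.2, 70.5, 105 and 83.8 in HFD placebo mice, and 54.0, 41.1, 69.8, 52.9 and 53.0 in LFD mice. No group overlapped another, and the order was HFD estradiol, HFD placebo, LFD. The log2 fold change was 0.76 in HFD estradiol against HFD placebo (SE 0.16, interval 0.43 to 1.09, adjusted p = 0.0015). It was 0.61 in HFD placebo against LFD (SE 0.16, interval 0.28 to 0.94, adjusted p = 0.0050) and 1.37 in HFD estradiol against LFD (SE 0.16, interval 1.04 to 1.70, adjusted p = 8.6e-05). The call against HFD placebo was lost in FPKM as deposited (0.42, adjusted p = 0.776) and with a constant sum per library (0.70, adjusted p = 0.055). Sncg stood higher in HFD estradiol than in HFD placebo mice while Lep stood lower: Lep averaged 26.4 ± 6.86 scaled FPKM in HFD estradiol, 53.0 ± 7.67 in HFD placebo and 23.1 ± 7.10 in LFD mice (SD, n = 5 each). The ratio of Sncg to Lep per library was 4.74 to 6.71 in HFD estradiol mice, 1.32 to 1.70 in HFD placebo mice and 2.05 to 3.18 in LFD mice, with no overlap between groups.

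Bmp3 (chr5:98854415-98884396, plus strand) had 2.91, 1.56, 2.87, 1.60 and 2.42 scaled FPKM in HFD estradiol mice, 1.79, 2.17, 1.47, 1.52 and 1.97 in HFD placebo mice, and 0.568, 0.899, 0.967, 1.26 and 0.641 in LFD mice. Both high-fat groups lay wholly above LFD and overlapped each other. The log2 fold change was 0.22 in HFD estradiol against HFD placebo (interval −0.07 to 0.50, adjusted p = 0.238), 0.58 in HFD placebo against LFD (SE 0.13, adjusted p = 0.0023) and 0.80 in HFD estradiol against LFD (SE 0.13, adjusted p = 0.0018). At these levels the added pseudocount of 1 makes the log2 fold change smaller than the ratio of means, which was 2.06 for HFD placebo over LFD and 2.62 for HFD estradiol over LFD. With lane as a term, the value in HFD estradiol against LFD was 0.83 and did not pass (adjusted p = 0.073).

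Fndc1 (chr17:7738569-7827302, minus strand) had 3.72, 2.06, 1.92, 2.03 and 1.70 scaled FPKM in HFD estradiol mice, 1.58, 1.56, 0.802, 0.505 and 1.04 in HFD placebo mice, and 0.916, 1.06, 0.719, 1.15 and 0.998 in LFD mice. Every HFD estradiol mouse lay above every mouse of the other groups, which overlapped each other, and HFD estradiol mouse 1 stood apart from its group. The log2 fold change was 0.65 in HFD estradiol against HFD placebo (SE 0.16, interval 0.32 to 0.98, adjusted p = 0.0050) and 0.71 in HFD estradiol against LFD (SE 0.16, interval 0.38 to 1.05, adjusted p = 0.012). In HFD placebo against LFD it was 0.06 (interval −0.27 to 0.40, adjusted p = 0.766). Leaving out each library in turn gave 0.51 to 0.73 in HFD estradiol against HFD placebo, and the call held each time. With an LFD library left out the value stayed at 0.65, since LFD mice enter this comparison only through the shared spread. In FPKM as deposited, without rescaling, it was 0.53 and did not pass (adjusted p = 0.544).

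Npr3 (chr15:11839896-11907287, minus strand) had 11.1, 12.5, 13.6, 9.20 and 19.0 scaled FPKM in HFD estradiol mice, 16.2, 18.7, 15.1, 22.5 and 18.6 in HFD placebo mice, and 15.5, 8.60, 23, 13 and 16.1 in LFD mice. The groups overlapped in every comparison, and LFD spanned the widest range. The log2 fold change was −0.47 in HFD estradiol against HFD placebo (interval −0.92 to −0.02, adjusted p = 0.107), 0.29 in HFD placebo against LFD (interval −0.16 to 0.74, adjusted p = 0.284) and −0.18 in HFD estradiol against LFD (interval −0.63 to 0.27, adjusted p = 0.685). None passed the threshold. With a constant sum per library the value in HFD placebo against LFD was 0.71 and passed (adjusted p = 0.019). Without HFD estradiol mouse 5, the highest of its group, the value against HFD placebo was −0.61 and passed (adjusted p = 0.042). Npr3 shares 321 exon bases with Gm5144, a noncoding gene on the opposite strand.

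The caveolins Cav1 (chr6:17306335-17341452) and Cav2 (chr6:17281185-17289115) are neighbours on the plus strand, and their products assemble together. Cav1 had 57.7, 80.6, 82.2, 75.5 and 94.5 scaled FPKM in HFD estradiol mice, 61.2, 61.0, 51.3, 80.5 and 67.3 in HFD placebo mice, and 86.2, 67.6, 92.6, 78.2 and 84.3 in LFD mice. Cav2 had 9.07, 11.9, 11.7, 11.2 and 13.2 scaled FPKM in HFD estradiol mice, 8.63, 7.46, 8.78, 12.3 and 11.3 in HFD placebo mice, and 14.9, 13.4, 13.9, 11.5 and 13.2 in LFD mice. In both genes the 3 HFD placebo mice of lane 5 were below every LFD mouse, and the 2 of lane 6 were the highest of their group. Cav2 was lower in HFD placebo than in LFD, with a log2 fold change of −0.44 (SE 0.13, interval −0.71 to −0.18, adjusted p = 0.0097), and the value of Cav1, −0.35, did not pass (interval −0.65 to −0.05, adjusted p = 0.059). Between HFD estradiol and HFD placebo, Cav1 had 0.28 (adjusted p = 0.165) and Cav2 0.23 (adjusted p = 0.186), and between HFD estradiol and LFD Cav1 had −0.08 (adjusted p = 0.803) and Cav2 −0.21 (adjusted p = 0.344). The direction of the caveolins in HFD placebo against LFD depends on the scaling: without rescaling, when all genes shift by a median of 0.77, Cav1 had 0.79 and Cav2 0.64, and with a constant sum, when that median is 0.28, they had 0.10 and −0.02. Relative to those shifts Cav1 had 0.02 and Cav2 −0.13 as deposited, and −0.18 and −0.30 with a constant sum. The ratio of Cav1 to Cav2 within a library, which no scaling alters, was 6.80 ± 0.308 in HFD estradiol, 6.72 ± 0.954 in HFD placebo and 6.14 ± 0.726 in LFD (SD, n = 5 each), with overlapping ranges.

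Tnmd (chrX:133850980-133865577) was listed at 0 in all HFD estradiol and LFD libraries and in HFD placebo mice 1, 2 and 3. HFD placebo mice 4 and 5, the most deeply sequenced, had 0.0226 and 0.0230 FPKM as deposited, estimated at 0.99 and 1.02 fragments. An exact two-sided permutation test of the difference in means gave p = 0.444 for HFD estradiol against HFD placebo and for HFD placebo against LFD. Only HFD placebo mice 4 and 5 were above 0, so no arrangement of these values could give a smaller p. The test therefore could not have shown a difference. A difference in Tnmd was not detectable at this depth.

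**Figure D2:**
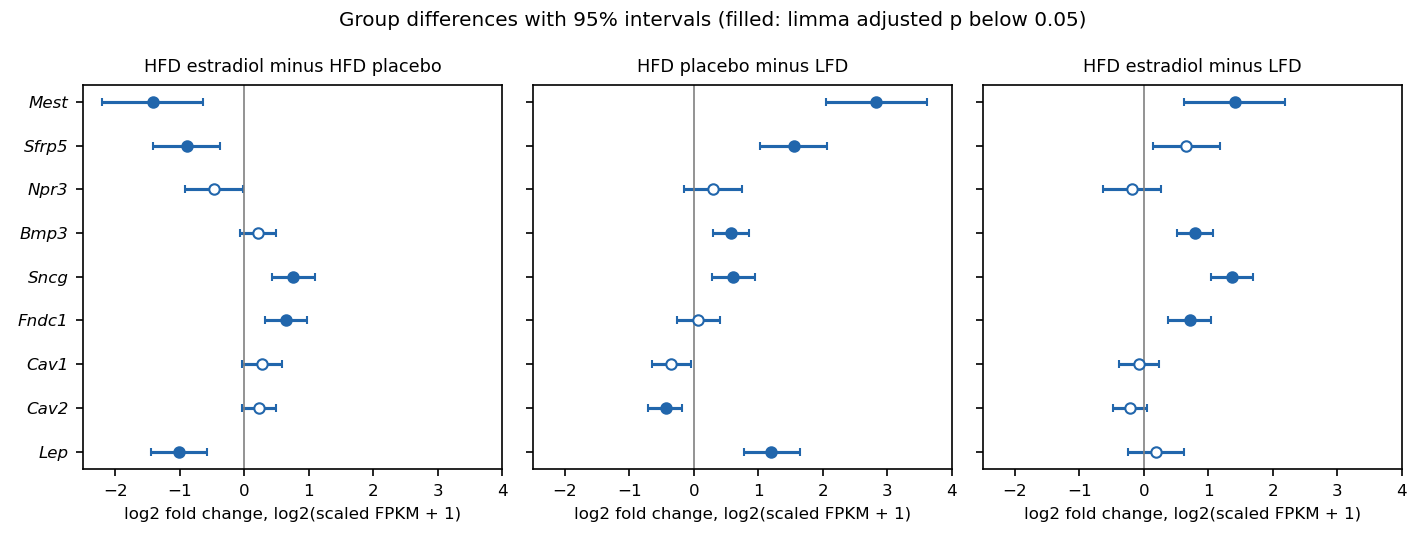
Log2 fold changes on log2(scaled FPKM + 1) (horizontal axis) with 95% intervals for the 8 tested members and Lep, in HFD estradiol minus HFD placebo, HFD placebo minus LFD and HFD estradiol minus LFD from left to right; filled points have a limma adjusted p below 0.05. Mest has the widest intervals and lies at −1.42 in the left panel and 2.83 in the middle one, and Sncg is above 0 in all 3 panels.

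Counted by separation of the groups, 3 of 8 tested members did not overlap between HFD estradiol and HFD placebo (Mest, Sncg and Fndc1), beside 21.2% of all tested genes. Between HFD placebo and LFD, 4 did not overlap (Mest, Sfrp5, Bmp3 and Sncg), beside 27.6%. Between HFD estradiol and LFD, 3 did not overlap (Sncg, Bmp3 and Fndc1), beside 8.05%.

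Because lane and group are mixed, each difference was taken again within a lane. Within lane 6, with 5 HFD estradiol and 2 HFD placebo mice, Mest had −1.65 (limma adjusted p = 0.014) and Fndc1 0.88 (adjusted p = 0.032). Sncg had 0.56 (adjusted p = 0.125) and Sfrp5 −0.78 (adjusted p = 0.149) there, in the same direction as with all libraries but past no threshold. With lane as a term and all libraries, Sncg had 0.56 (adjusted p = 0.073) and Sfrp5 −0.78 (adjusted p = 0.150). Within lane 5, with 3 HFD placebo and 5 LFD mice, all members called with all libraries stayed called: Mest had 2.68 (adjusted p = 0.0027), Sfrp5 1.62 (8.6e-04), Bmp3 0.59 (0.0057), Sncg 0.48 (0.036) and Cav2 −0.63 (0.0014). Cav1 passed within lane 5 as well, with −0.49 (adjusted p = 0.015). HFD estradiol and LFD share no lane, so lane and group cannot be told apart in that comparison.

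**Figure D3:**
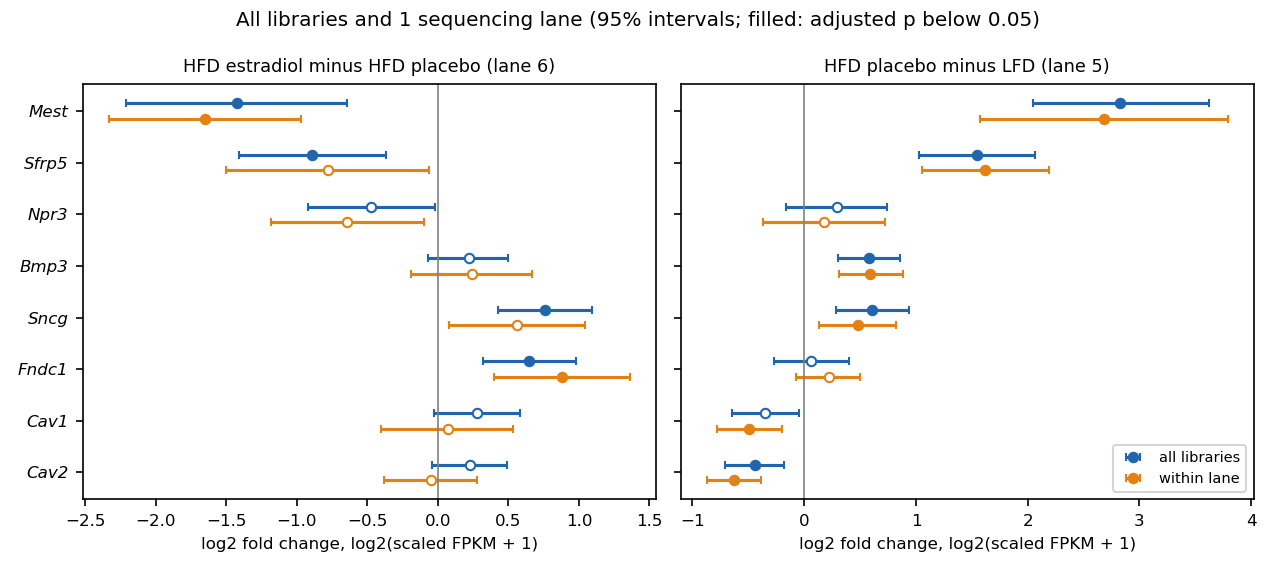
Log2 fold changes on log2(scaled FPKM + 1) with 95% intervals of the 8 tested members in all libraries (blue) and within 1 lane (orange), with HFD estradiol minus HFD placebo on the left (lane 6) and HFD placebo minus LFD on the right (lane 5); filled points have an adjusted p below 0.05. In lane 6 Mest (−1.65) and Fndc1 (0.88) remain filled and Sncg and Sfrp5 do not, and in lane 5 Cav1 (−0.49) becomes filled.

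Mice of the same group differed widely in Mest in HFD estradiol and LFD. Its coefficient of variation was 43.4% in HFD estradiol, 18.9% in HFD placebo and 96.2% in LFD, beside medians over all tested genes of 13.2% in HFD estradiol, 14% in HFD placebo and 16% in LFD. The share of tested genes that varied more was 3.01% in HFD estradiol, 30.9% in HFD placebo and 0.588% in LFD. The highest LFD mouse had 28.5 times the level of the lowest, LFD mouse 2, and without that mouse the ratio was 4.84 and the coefficient of variation 76.9%. LFD mouse 3 was the highest and LFD mouse 2 the lowest of their group in Mest, Sfrp5, Npr3, Sncg and Cav1. LFD mouse 2 had the fewest estimated fragments at 1 scaled FPKM in 2 kb, 20.8 beside 28.4 in LFD mouse 3. That value includes the scaling factor, which was 0.4807 in LFD mouse 2 and 0.6577 in LFD mouse 3. Before scaling, the estimated depths were alike: 1 fragment in 1 kb stood for 0.0415 FPKM in LFD mouse 2 and 0.0417 in LFD mouse 3. HFD estradiol mouse 5 was the highest of its group in Mest, Sfrp5, Npr3, Sncg, Cav1, Cav2 and Lep and the lowest in Fndc1. Mir6236 held 49.94% of its summed FPKM and its scaling factor was 0.6105, beside 15.7% to 23.17% and 1.131 to 1.63 in the rest of its group. HFD placebo mouse 4 was the highest of its group in Mest, Npr3, Sncg, Cav1, Cav2 and Lep and the lowest in Fndc1. It had the lowest Mir6236 share of all 15 libraries, 10.16%, and the highest factor, 3.232. The part of these library features in the values was not tested. After each value was taken less its group mean, the pairs that varied most alike over the 15 libraries were Sncg and Cav1 (r = 0.93), Mest and Npr3 (r = 0.90) and Npr3 and Sncg (r = 0.88). Cav1 and Cav2 had r = 0.75, and Mest and Sfrp5 had r = 0.67. Cav2 and Fndc1 varied in opposite directions (r = −0.81). These are descriptions over libraries that share their scaling factor, and no test was made of them.

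**Figure D4:**
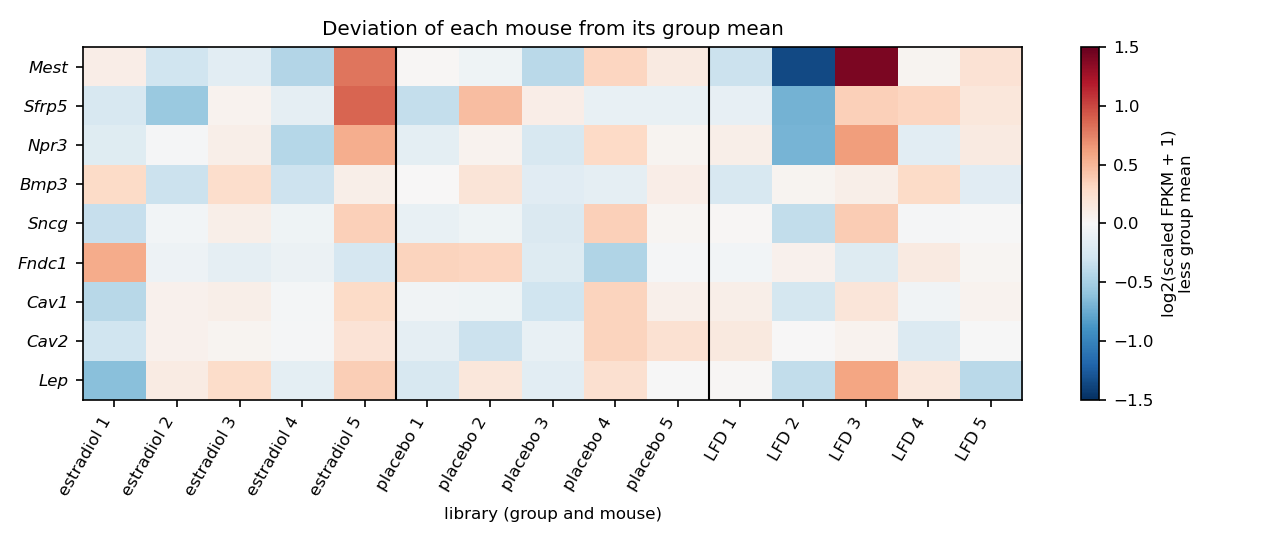
Log2(scaled FPKM + 1) less the group mean (colour, red above and blue below) for the 8 tested members and Lep in rows and the 15 libraries in columns, with HFD estradiol, HFD placebo and LFD mice from left to right. LFD mouse 3 is red and LFD mouse 2 blue across Mest, Sfrp5, Npr3, Sncg and Cav1, and HFD estradiol mouse 5 is red in all rows except Bmp3, where it is near its group mean, and Fndc1, where it is blue.

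Lep itself was 16.3, 28, 31.3, 23.1 and 33.4 scaled FPKM in HFD estradiol mice, 44.4, 59.1, 46.9, 62.4 and 52.4 in HFD placebo mice, and 22.6, 17, 34, 25.1 and 16.7 in LFD mice. HFD placebo mice lay above all others, and HFD estradiol and LFD mice overlapped. Since 1 group stands apart in Lep, no correlation pooled over groups was tested. The relation was taken within groups instead, over all 15 libraries with each gene and Lep less their group means, with 8 relations and 100000 permutations of Lep within groups. Sncg followed Lep most closely, with Pearson r = 0.84 (permutation p = 3.7e-04) and Spearman rho = 0.79 (permutation p = 0.0018). Cav1 had r = 0.76 (permutation p = 0.0015) and rho = 0.72 (p = 0.0047), and Npr3 had r = 0.71 (permutation p = 0.015) and rho = 0.68 (p = 0.016). Mest, which like Lep was highest in HFD placebo mice, had r = 0.57 within groups (permutation p = 0.070) and rho = 0.40 (p = 0.190). Sfrp5 had r = 0.55 (permutation p = 0.075) and rho = 0.58 (p = 0.043). Cav2 had r = 0.42 (permutation p = 0.089) and rho = 0.43 (p = 0.107), and Bmp3 had r = 0.11 (permutation p = 0.742) and rho = 0.21 (p = 0.506). Fndc1 ran the other way, with r = −0.61 (permutation p = 0.013) and rho = −0.63 (p = 0.014).

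HFD estradiol mouse 1 and LFD mouse 3 lay farthest from the median in Lep less its group mean. Without them r was 0.74 for Sncg, 0.64 for Cav1, 0.66 for Npr3, 0.55 for Mest, 0.52 for Sfrp5, 0.26 for Cav2 and 0.37 for Bmp3, and for Fndc1 it was −0.38, so the last rests in good part on those mice. In a limma model over all genes with group and Lep as terms, the slope, in log2 units per log2 unit of Lep, was 0.60 for Sncg (interval 0.31 to 0.88, adjusted p = 0.188). It was 0.48 for Cav1 (interval 0.18 to 0.78, adjusted p = 0.331), 0.75 for Npr3 (interval 0.30 to 1.19, adjusted p = 0.280) and 1.08 for Mest (interval 0.20 to 1.95, adjusted p = 0.435). No member and 0 of 5614 genes passed the adjusted threshold, by limma with or without trend and robust moderation, and 9.26% of genes had an unadjusted p below 0.05, 5.17% with a positive slope. At that unadjusted threshold 6 of the 8 members passed, 5 with a positive slope and Fndc1 with a negative 1. Slopes were positive for 7 of the 8 members and for 47.6% of all genes. The members vary alike within groups, so these are not independent counts, and they carry no test. With Lep as a term, 3 of the 4 calls between HFD estradiol and HFD placebo were lost: Mest had −0.34 (adjusted p = 0.723), Sfrp5 −0.20 (adjusted p = 0.763) and Fndc1 0.17 (adjusted p = 0.660). Sncg kept its call with 1.36 (adjusted p = 2.9e-04), and Cav1 gained 1 with 0.76 (adjusted p = 0.010). Between HFD placebo and LFD the calls of Mest (1.54, adjusted p = 0.079), Sfrp5 (0.73, adjusted p = 0.219) and Bmp3 (0.49, adjusted p = 0.190) were lost, and Sncg turned to −0.11 (adjusted p = 0.738). Cav2 kept its call there with −0.74 (adjusted p = 0.030), and Cav1 gained 1 with −0.93 (adjusted p = 0.0051). Lep itself differs between the groups, so these values rest on the assumption that the slope within groups also holds between them.

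**Figure D5:**
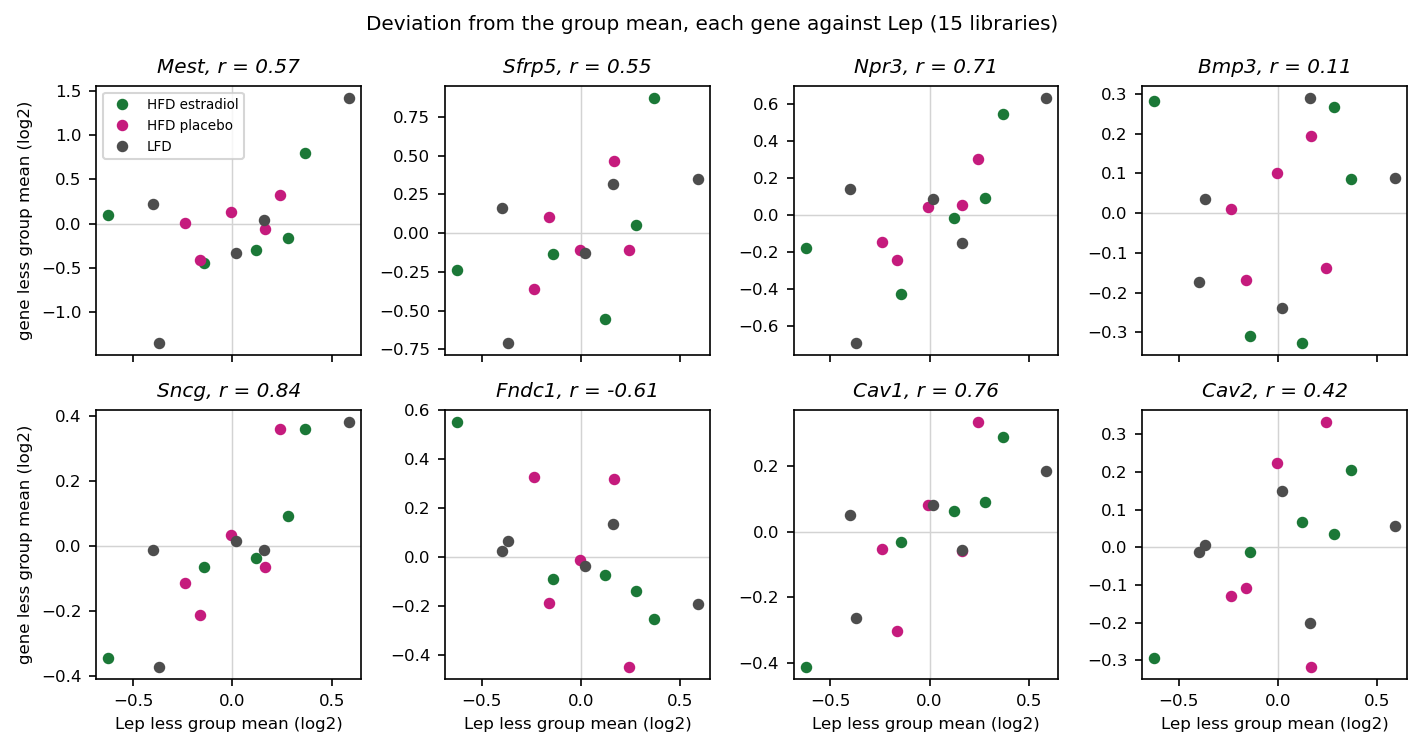
Log2(scaled FPKM + 1) less the group mean of each tested member (vertical axis) against that of Lep (horizontal axis) in 15 libraries, in green for HFD estradiol, magenta for HFD placebo and grey for LFD, with the Pearson r of each panel. Sncg (r = 0.84) and Cav1 (r = 0.76) climb with Lep, Fndc1 descends (r = −0.61), and Bmp3 (r = 0.11) shows no slope.

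Over all 15 libraries, group differences included, the genes most like Mest among 5427 compared were Nedd9, a scaffold protein of integrin signalling (r = 0.980), the secreted serpin Serpinf1 (r = 0.959), the lipopolysaccharide binding protein Lbp (r = 0.940), the G protein subunit Gng2 (r = 0.938) and the collagen Col6a1 (r = 0.929). Lep ranked 80 for Mest (r = 0.846) and 44 for Sfrp5 (r = 0.848), likenesses that include the separation of the HFD placebo group and differ from the values within groups above. The closest to Sfrp5 were Prelp (r = 0.946), a leucine-rich repeat protein of the matrix, and Gna12 (r = 0.940). Those closest to Sncg were the secreted protease Htra1 (r = 0.918) and the calcium pump Atp2a3 (r = 0.917), and those closest to Fndc1 were the collagen-binding receptor Antxr1 (r = 0.936) and the laminin chain Lamb1 (r = 0.920). Pcolce2 (r = 0.909) and Svep1 (r = 0.889) were closest to Bmp3, Prdx6 (r = 0.890) and Snx7 (r = 0.887) to Npr3, Ctcflos (r = 0.927) and Cd151 (r = 0.909) to Cav1, and Ginm1 (r = 0.884) and Vcp (r = 0.881) to Cav2. These correlations describe likeness of pattern over 15 libraries and carry no test.

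Genes around the members in their pathways gave mixed counts. Counts for this and the following lists stand beside the shares of all tested genes called. These were 30.4% in HFD estradiol against HFD placebo (14.3% higher, 16% lower) and 43.3% in HFD placebo against LFD (21.3% higher, 22% lower). In HFD estradiol against LFD the share was 7.69%. The lists are short, and no test was made of them. Of 34 Wnt ligands, receptors and antagonists, 7 were tested. In HFD estradiol against HFD placebo 4 of them were higher and 0 lower (median 0.31), and in HFD placebo against LFD 1 was higher and 3 lower (median −0.17). Sfrp4, a relative of Sfrp5, averaged 2.05 ± 0.636 scaled FPKM in HFD estradiol, 1.02 ± 0.432 in HFD placebo and 0.208 ± 0.058 in LFD (SD, n = 5 each), and was higher in HFD estradiol than in HFD placebo (0.59, adjusted p = 0.0035), where Sfrp5 was lower. Axin2, a target gene of Wnt signals, was lower in HFD placebo than in LFD (−0.91, adjusted p = 1.9e-05), and the receptor Fzd4 was lower there (−0.45, adjusted p = 7.3e-04) and higher in HFD estradiol than in HFD placebo (0.41, adjusted p = 0.0024). The co-receptor Lrp5 was also higher in HFD estradiol than in HFD placebo (0.23, adjusted p = 0.031).

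Of 30 BMP ligands, receptors, antagonists and targets, 12 were tested. In HFD estradiol against HFD placebo 2 were higher and 1 lower, beside 30.4% of all tested genes called. For HFD placebo against LFD 3 were higher and 2 lower, beside 43.3%. Neither count exceeded the share over all genes, so the genes below are given singly. Chrdl1, a secreted BMP antagonist, was higher in HFD estradiol than in HFD placebo (4.49 ± 0.828 and 1.56 ± 0.445 scaled FPKM, SD, n = 5 each; log2 fold change 1.11, adjusted p = 1.8e-05) and lower in HFD placebo than in LFD (−0.66, adjusted p = 6.9e-04). Fstl1, a secreted follistatin-like glycoprotein, was higher in HFD placebo than in LFD (0.96, adjusted p = 4.6e-05), as was the procollagen protease Bmp1 (0.44, adjusted p = 0.014). Id2, a target gene of BMP signals, was lower in HFD estradiol than in HFD placebo (−0.54, adjusted p = 0.013), and the signal transducer Smad5 was higher (0.22, adjusted p = 0.017).

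Of 12 genes of the natriuretic peptide system, 4 were tested. The signalling receptors Npr2 (0.55, adjusted p = 8.2e-05) and Npr1 (0.30, adjusted p = 0.018) were higher in HFD estradiol than in HFD placebo, and the phosphodiesterase Pde2a was lower (−0.32, adjusted p = 0.0041). In HFD placebo against LFD, Npr2 was lower (−0.42, adjusted p = 4.3e-04), Pde2a was higher (0.48, adjusted p = 9.2e-05) and Npr1 had −0.05 (adjusted p = 0.688). Of 11 caveola coat and accessory genes, 7 were tested, and those called were Insr, the insulin receptor, and Ehd2, an ATPase of the caveolar neck. Both were higher in HFD estradiol than in HFD placebo (0.41, adjusted p = 2.2e-04, and 0.43, adjusted p = 0.0071) and lower in HFD placebo than in LFD (−0.57, adjusted p = 6.7e-06, and −0.67, adjusted p = 1.6e-04). Prkcdbp, a caveolar coat protein now called Cavin3, had 0.38 in HFD placebo against LFD (adjusted p = 0.146), and the fatty acid transporter Cd36 had −0.15 in HFD estradiol against HFD placebo (adjusted p = 0.285). By limma none of the 7 was called between HFD estradiol and LFD.

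Of 8 other fat mass genes, 7 were tested. Gas6, a secreted ligand of the TAM receptors, was higher in HFD estradiol than in HFD placebo (1.37, adjusted p = 2.5e-04), and the lipoprotein receptor Vldlr was lower (−0.44, adjusted p = 0.0011). Angptl4, an inhibitor of lipoprotein lipase, was higher in HFD placebo than in LFD (0.93, adjusted p = 0.0075). The imprinted gene Peg3, read like Mest from the paternal copy and named after its values were seen, was higher in HFD estradiol than in LFD (1.12, adjusted p = 0.016). Of 9 relatives of Sncg, Tnmd and Fndc1, only Fndc3a and Fndc3b were tested, and neither was called in any comparison by limma, with the lowest adjusted p at 0.053.

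Cell type markers moved with the same contrasts. Of all tested genes, 14.3% were called higher and 16% lower in HFD estradiol against HFD placebo. For HFD placebo against LFD these shares were 21.3% and 22%. The 14 mature adipocyte markers summed to 1761 to 2501 scaled FPKM in HFD estradiol, 1001 to 1650 in HFD placebo and 2050 to 2939 in LFD; 11 of them were higher in HFD estradiol than in HFD placebo and 13 lower in HFD placebo than in LFD. Mest, Sfrp5 and Lep ran against that direction in both comparisons. The 10 macrophage markers summed to 50.8 to 147 in HFD estradiol, 145 to 453 in HFD placebo and 38.2 to 101 in LFD; 9 were lower in HFD estradiol than in HFD placebo and 10 higher in HFD placebo than in LFD, as Mest and Sfrp5 were. The 13 adipose progenitor markers summed to 280 to 406 in HFD estradiol, 182 to 255 in HFD placebo and 214 to 277 in LFD, and of 11 tested, 4 were higher and 1 lower in HFD estradiol against HFD placebo. The 10 endothelial markers, from cells that also make Cav1 and Cav2, summed to 23.1 to 28 in HFD estradiol, 22.0 to 29.5 in HFD placebo and 25.3 to 30.7 in LFD. The 8 nerve and Schwann cell markers, from a tissue that also makes Sncg, summed to 1.79 to 2.69 in HFD estradiol, 2.30 to 3.17 in HFD placebo and 1.53 to 2.23 in LFD, in a different order from Sncg. No marker of the adipocyte, macrophage, progenitor, endothelial or nerve lists was at 0 in a whole group. The part of these cell types in the differences of the members was not tested.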

How the data were processed

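Strand-specific Illumina libraries were made from periprostatic fat RNA (integrity number over 7) after ribosomal RNA depletion, per the labels' protocols. Each deposited file lists FPKM by gene symbol for 1 library, a level divided by transcript length and by the fragments of that library. The submitters' processing notes name STAR, Cufflinks and mm10; versions, annotation and use of strand are not given in the sources used here.

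Values were divided by a median-of-ratios factor per library (0.481 to 3.23, from 5874 genes). The 5615 genes that reached 1 scaled FPKM in 5 or more libraries were tested on log2(scaled FPKM + 1) with limma 3.58.1 in R 4.3.3, with trend and robust moderation, all 15 libraries and group as the only factor. P-values were adjusted by Benjamini and Hochberg over these genes for each comparison, and 0.05 was the threshold. The procedure was also run on simulated data, with the outcome not given here. That simulation had independent noise for each gene and no effect of lane or of shared library scaling, so it does not bear on those. Fold changes on this scale understate those of low genes. Permutation tests used Python 3.11.15, numpy 2.4.6 and scipy 1.17.1. Depth was estimated from the spacing of low FPKM values in 1636 genes, of which 51.1% to 64.2% lay within 2% of a whole multiple; these estimates give no interval.

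Groups and replicate numbers came from the labels, and lanes from the names of the deposited files. Members, related lists and tests were chosen with earlier results of these data known. Beside the members and Lep, the text names the 3 genes of each related list with the smallest adjusted p in HFD placebo against LFD and in HFD estradiol against HFD placebo, and the genes most correlated with each member (5 for Mest, 2 for each other), leaving out predicted genes and small RNAs. Positions are from GENCODE vM21. Alternatives covered the pseudocount, filter, scaling, moderation, lane, a replicate block, Lep as a term and leaving out each library. Labels do not state separate cages or litters, and each replicate is a different mouse.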

Additional observations from a re-analysis of the deposited data

Results flagged for a closer look

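Fndc1 in HFD estradiol mouse 1 was 3.72 scaled FPKM, while the other 4 HFD estradiol mice lay between 1.70 and 2.06. The gap to its nearest neighbour was 0.823 of the range of the group, above the value of 0.71 that Dixon's test gives for 5 samples. It was the only 1 of 27 groups of 5 examined, in 8 members and Lep, that stood apart in this way, and chance alone gives about 1 in 20. The same mouse was the highest of its group in Bmp3 and the lowest in Sncg, Cav1, Cav2 and Lep. Without it, the log2 fold change of Fndc1 in HFD estradiol against HFD placebo was 0.51 (limma adjusted p = 0.0089).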

How the results depend on the processing

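Of 664 alternatives to the 24 member log2 fold changes, 603 kept direction and side of the threshold, 25 lost the threshold, 15 gained it and 21 changed sign. Many of these could not move the log2 fold change, only its p. They include leaving out a library of the group not compared, and changes of filter or moderation. The 603 are therefore not a measure of how firm the directions are. The number of members called stayed within 1.5 times that reported, except in these cases. In HFD placebo against LFD it was 2 with Lep as a term. For HFD estradiol against HFD placebo it was 2 in FPKM as deposited, with lane as a term, within lane, within lane with factors set anew and with Lep as a term. Mest in HFD estradiol against HFD placebo was −0.34 with Lep as a term, and in HFD placebo against LFD it was 1.54. In HFD estradiol against LFD, Mest was 1.41 with no filter (adjusted p = 0.075), 1.03 with lane as a term and 1.07 to 1.76 when each library was left out. Members with a called slope on Lep numbered 8 in FPKM as deposited and 1 with a constant sum (Npr3). The share of all genes called in these settings is not given here, so neither count is a result about the members. As deposited, Lep and every other gene of a library still carry the same library factor (0.481 to 3.23).

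Signs changed only for differences below 1 SE or under a change of scale, lane or Lep term. As deposited, HFD placebo against LFD gave 0.79 for Cav1 and 0.64 for Cav2. HFD estradiol against HFD placebo gave −0.05 for Bmp3, −0.07 for Cav1 and −0.11 for Cav2, and HFD estradiol against LFD gave 0.56 for Npr3, 0.72 for Cav1 and 0.53 for Cav2. The slope of Fndc1 became 0.24. With a constant sum, Cav1 was 0.10 in HFD placebo against LFD, and Npr3, Cav1 and Cav2 were 0.18, 0.31 and 0.15 in HFD estradiol against LFD. With Lep as a term, Npr3 was −0.61 and Sncg −0.11 in HFD placebo against LFD, and Npr3 was 0.28 in HFD estradiol against HFD placebo. Cav2 in HFD estradiol against HFD placebo was −0.05 with lane as a term and within lane, and −0.06 with factors set anew. Leaving out each library moved Fndc1 in HFD placebo against LFD between −0.02 and 0.18, and Cav1 in HFD estradiol against LFD between −0.15 and 0.03. The cause of these changes was not tested beyond the alternative's own construction. Among all genes, calls in HFD estradiol against HFD placebo numbered 1706, against 2606 with no filter, 276 as deposited, 831 with a constant sum, 711 with lane as a term, 681 within lane, 692 with factors set anew and 886 with Lep as a term. In HFD placebo against LFD they numbered 2431, against 3908 with no filter and 1131 with Lep as a term, and in HFD estradiol against LFD 432, against 39 as deposited and 162 with lane as a term.

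Between libraries of equal replicate number, correlations of deviations from the group means ran from −0.21 to 0.36, with 0.111 to 0.36 for number 1. They were not set against those of unequal numbers, so whether equal numbers mark related libraries was not tested. With a replicate block, 4, 5 and 4 members were called in HFD estradiol against HFD placebo, HFD placebo against LFD and HFD estradiol against LFD, as without it, and Mest had −1.42, 2.83 and 1.41. Lep as a term, factors set anew within lane, leaving out HFD estradiol mice 1 and 5 together, and the slope without trend or robust moderation were added after the data had been seen. Shallow LFD libraries limit what can be said of low members such as Bmp3 and Fndc1.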
